A study of Mus musculus with 6 samples.

Results

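The elastic fiber genes Fbln5 and 9 others, 10 of the 24346 gene symbols measured, were compared between parental CT26.mMR1 cells and the mutant M8. The set held 5 fibulins (Fbln1, Fbln2, Fbln5, Efemp1 and Efemp2), the microfibril genes Fbn1 and Mfap2, elastin (Eln) and the crosslinking enzymes Lox and Loxl1, and all 10 symbols were found. Fbln5 was chosen because its rise in M8 was already known to be among the largest in these data, and the other 9 were chosen by their function. The differences of these 10 genes between the lines are therefore given as a description, and no p-value is printed for them. Where a gene lay in relation to the threshold used for all genes is stated, but it is not evidence of a difference, least of all for Fbln5. A gene with a mean FPKM (read fragments scaled to exon length and to library size) under 1 over the 6 libraries is called low.

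CT26 is a mouse colorectal tumor cell line, and the parental cells carried mouse MR1, the molecule that presents metabolites to mucosal-associated invariant T (MAIT) cells, introduced with a retrovirus. M8 came from the same MR1-overexpressing cells after treatment with the mutagen N-ethyl-N-nitrosourea (ENU). It was cloned by limiting dilution and picked for its surface MR1 and its activation of a MAIT cell reporter line. M8 is thus 1 clone, and a change that this clone already carried cannot be told apart from one that ENU caused. The titles of both groups also carry the label cl9, whose meaning is not given. Poly(A)-selected RNA of each line was sequenced in 3 replicates, and the comparison served the study's search for the MR1-presented tumor ligand that MAIT cells recognize.

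Elastic fibers give skin, lung, vessels and gut wall their recoil. Cells lay down a scaffold of microfibrils made mainly of fibrillin, fibulins bring tropoelastin to that scaffold, and lysyl oxidases then crosslink it into an insoluble core. Fibulin-5 (Fbln5) binds tropoelastin, integrins and lysyl oxidase-like 1, and it is also known as a secreted matricellular protein in tumors. Fibulin-4 (Efemp2) is needed for lysyl oxidase to reach elastin. Fibulin-2 (Fbln2) sits at the border of elastin and microfibrils and in basement membranes.

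The files gave 593635 to 630264 summed FPKM per library, and the steps between low values gave an estimated 23700000 to 26700000 mapped reads in the parental libraries and 19300000 to 21900000 in the M8 libraries. Across all genes, which are not independent replicates, Pearson's r of the log2 values was 0.9978 to 0.9983 for pairs of libraries within a line and 0.9964 to 0.9973 for pairs across the lines. Mr1 was at 1050 to 1140 FPKM in the parental libraries and at 1030 to 1090 in M8, so the transduced gene was present in all 6. None of 18 housekeeping genes was listed at 0 in any library. The study calls the 3 replicates of a line biological, without a statement in the sources used here of how the cultures were separated. The SDs below therefore measure the spread between these libraries. The standard errors also draw on the variance of the other genes in the fit.

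**Figure D1:**
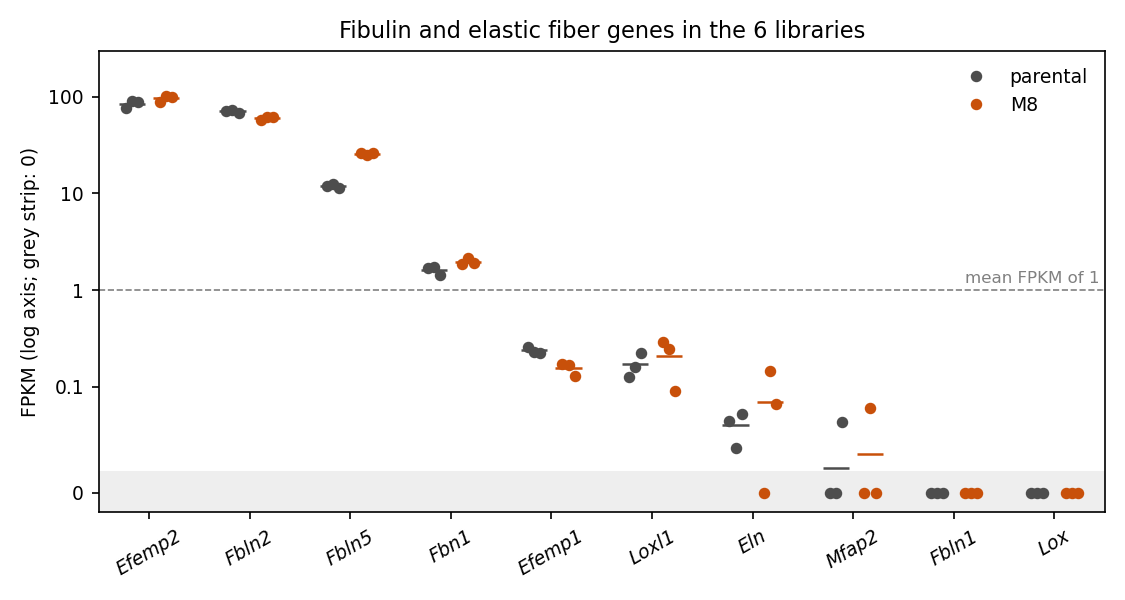
FPKM of the 10 genes on a log axis, 1 point per library (parental grey, M8 orange), with a line at each mean and values of 0 in the grey strip. Only Efemp2, Fbln2, Fbln5 and Fbn1 lie above a mean FPKM of 1, and the Fbln5 points of the lines are the most widely separated of these 4.

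Fbln5 was the only 1 of the 10 genes whose level changed by more than 1.5-fold with a mean FPKM of at least 1. Its level was 11.8, 12.5 and 11.5 FPKM in the parental libraries and 26.4, 25.2 and 26.0 FPKM in the M8 libraries. Every M8 library lay above every parental library, with a gap of 12.7 FPKM between the lowest M8 and the highest parental value. The means were 11.9 ± 0.540 FPKM (parental) and 25.9 ± 0.637 FPKM (M8) (SD, n = 3 each), a ratio of 2.17. On the log2(FPKM + 1) scale, the difference was 1.06 with a standard error of 0.05 in the limma fit over the 10597 genes whose mean FPKM reached 1. By this difference Fbln5 ranked 13th of the 10597 genes among the increases, and 7th of the 8547 genes whose mean FPKM reached 5. By level it ranked 4619th. These are bulk libraries, in which more cells with Fbln5 transcripts and more transcripts per cell cannot be told apart.

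The gene lies at chr12:101746565-101819055 on the minus strand (GENCODE M21, GRCm38, the mm10 assembly), and no other annotated gene overlaps it. RefSeq gives 2 transcription starts for Fbln5, and the gene-level FPKM values do not say which was used. The 250 bases upstream of each are printed with those of Fbln2, the fibulin that moved in the opposite direction, because these are the windows in which the fibulin genes with the clearest difference can be compared. They were taken from RefSeq on GRCm38.p6, and the transcribed strand is shown 5′ to 3′. They cover chr12:101819120-101819369 (minus strand), chr12:101818485-101818734 (minus strand) and chr6:91212514-91212763 (plus strand), respectively. Capitals mark matches, on either strand, to the GC box GGGCGG or to CAGACA, a SMAD-binding element.
Fbln5 start 1: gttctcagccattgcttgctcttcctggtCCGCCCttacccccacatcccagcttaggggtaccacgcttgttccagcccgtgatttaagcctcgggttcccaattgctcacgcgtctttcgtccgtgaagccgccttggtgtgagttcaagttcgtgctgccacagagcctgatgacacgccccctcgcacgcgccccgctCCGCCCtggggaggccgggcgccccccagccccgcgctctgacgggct
Fbln5 start 2: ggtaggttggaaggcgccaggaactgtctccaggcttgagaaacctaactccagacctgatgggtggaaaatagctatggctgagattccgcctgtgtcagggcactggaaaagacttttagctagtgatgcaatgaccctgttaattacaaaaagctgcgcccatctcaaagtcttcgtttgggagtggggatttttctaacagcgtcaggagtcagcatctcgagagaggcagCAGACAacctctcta
Fbln2 start 1: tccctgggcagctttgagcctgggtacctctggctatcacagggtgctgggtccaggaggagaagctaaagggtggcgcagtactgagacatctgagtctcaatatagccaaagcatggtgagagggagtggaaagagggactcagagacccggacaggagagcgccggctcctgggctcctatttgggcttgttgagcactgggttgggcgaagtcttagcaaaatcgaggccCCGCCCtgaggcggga

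The first Fbln5 window was 65.2% G and C, with 21 CpG dinucleotides and 2 GC boxes. The second was 49.6% G and C, with 6 CpG, no GC box and 1 CAGACA element. The Fbln2 window was 58.8% G and C, with 8 CpG and 1 GC box. Over all 32817 RefSeq promoter windows of the same length, the median was 52.4% G and C with 6 CpG. GGGCGG was present in 32.7% of those windows and CAGACA in 17.1%. TATAAA (in 12.4% of all windows) and the AP-1 motif TGANTCA (in 6.75%) were searched in the same way, and neither had a match in the 3 windows. The E-box CANNTG (in 66.2% of all windows), not marked by capitals, had 1 match in the first Fbln5 window, 0 in the second and 1 in the Fbln2 window. None of these motifs contains another, and a match is a description of the letters only.

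Efemp2, the gene of fibulin-4, had the highest level of the 10 genes. It was at 77.2, 89.99 and 88.2 FPKM in the parental libraries and at 88.0, 102 and 98.8 FPKM in M8. The lines overlapped, since M8 replicate 1 lay below parental replicates 2 and 3. The means were 85.1 ± 6.93 and 96.3 ± 7.41 FPKM (SD, n = 3 each), a ratio of 1.13. The log2 difference was 0.18 with a standard error of 0.07. This lay past the threshold of an adjusted p below 0.1, but not without parental replicate 1, M8 replicate 2 or M8 replicate 3, where the difference was 0.11, 0.13 and 0.16. It also fell short with TPM (0.14), quantile normalization (0.10) and upper-quartile scaling (0.12), without a filter and without a trend. Efemp2 lies at chr19:5473954-5482517 on the plus strand and overlaps Mus81, on the opposite strand.

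Fbln2 differed in the other direction. Its level was 72.0, 73.2 and 68.3 FPKM in the parental libraries and 58.2, 62.0 and 62.4 FPKM in M8. All M8 libraries lay below all parental libraries. The means were 71.2 ± 2.57 and 60.9 ± 2.30 FPKM (SD, n = 3 each), a ratio of 0.855, and the log2 difference was -0.22 with a standard error of 0.05. Fbln2 lies at chr6:91212455-91272540 on the plus strand and overlaps no annotated gene.

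The remaining fibulins were low. Efemp1, the gene of fibulin-3, was at 0.260, 0.228 and 0.222 FPKM in the parental libraries and at 0.173, 0.168 and 0.128 FPKM in M8. These values correspond to an estimated 12, 10 and 11 reads and to 7, 6 and 5 reads. The lines did not overlap, as was so for 45.2% of the genes tested, a share that leaves out low genes such as Efemp1. Whether the gap exceeds counting error at so few reads was not tested. Fbln1, the gene of fibulin-1, was listed at 0 in all 6 libraries. At the estimated depths, 3 reads of the longest Fbln1 transcript would give 0.0325 to 0.0449 FPKM, and a level up to about that value could have been missed. For a shorter transcript the value would be higher.

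**Figure D2:**
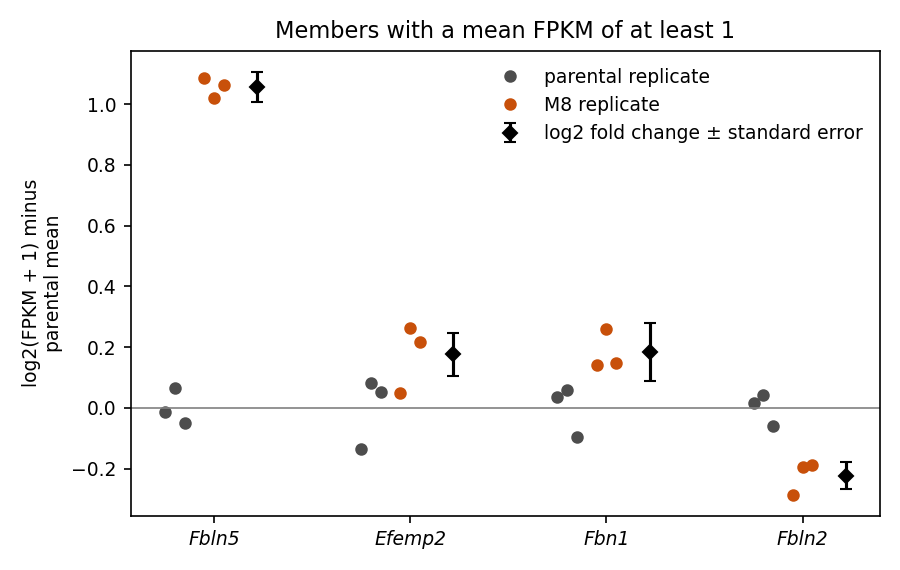
The 4 genes that passed the filter on low values, as log2(FPKM + 1) minus the parental mean of each gene; points are libraries (n = 3 per line) and diamonds are the log2 fold change with its standard error. The Fbln5 difference is 1.06, in a gene chosen for its rise in these libraries, and the M8 and parental points of Efemp2 overlap.

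The make-up of the fibulin transcripts shifted towards Fbln5. The summed FPKM of the 5 fibulins was 161.3, 176.0 and 168.2 in the parental libraries and 172.8, 189.5 and 187.3 in M8. Fbln5 made up 7.32%, 7.11% and 6.82% of that sum in the parental libraries and 15.3%, 13.3% and 13.9% in M8, with no overlap. The mean share was 7.08% ± 0.251 in parental cells and 14.2% ± 1.03 in M8 (SD, n = 3 each). Over the same libraries the share of Fbln2 was 42.3% ± 2.14 and 33.2% ± 0.503. That of Efemp2 was 50.5% ± 2.32 and 52.5% ± 1.52. There were 5.97 Fbln2 transcripts per Fbln5 transcript in parental cells and 2.35 in M8, by FPKM. For Efemp2 the ratio to Fbln5 was 7.14 and 3.73. Shares of 1 sum depend on each other, so they restate the levels above and are no separate measurement.

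**Figure D3:**
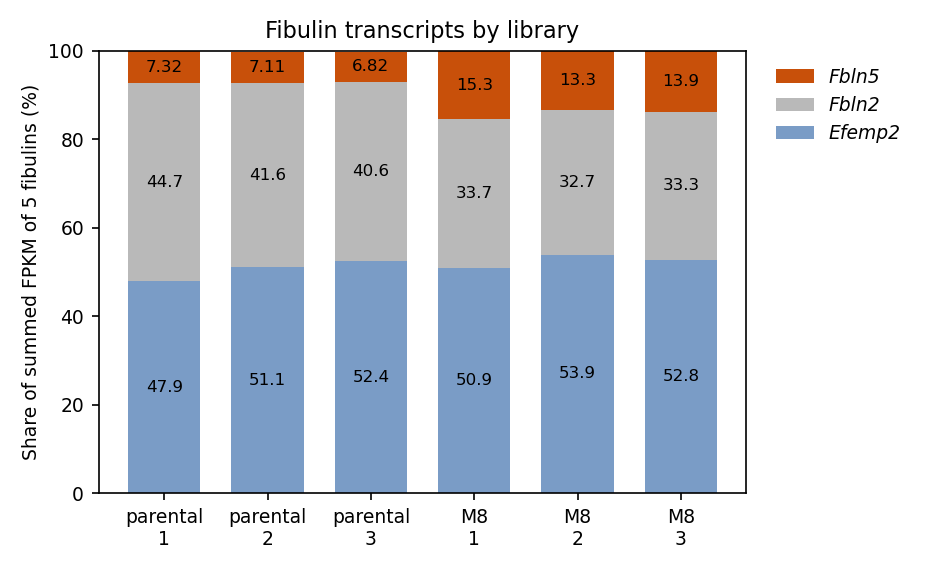
Share of each fibulin in the summed FPKM of 5 fibulins, 1 bar per library; Efemp1 is under 0.2% of each bar, and Fbln1 is at 0, so neither is drawn. The Fbln5 segment spans 6.82% to 7.32% in the parental bars and 13.3% to 15.3% in the M8 bars, while the Fbln2 segment is smaller in each M8 bar.

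Of the microfibril genes, Fbn1 passed the filter on low values and Mfap2 did not. Fbn1 encodes fibrillin-1, the main subunit of microfibrils. It was at 1.68, 1.72 and 1.44 FPKM in the parental libraries and at 1.88, 2.13 and 1.89 FPKM in M8. Every M8 value was above every parental value, and the ratio of the means was 1.22. The log2 difference was 0.18 with a standard error of 0.09, short of the threshold. On this scale the size for Fbn1 is understated, because 1 is added to values that are themselves near 1. Fbn1 lies at chr2:125300594-125507993 on the minus strand and overlaps the predicted gene Gm9913, on the opposite strand. Mfap2, which encodes the microfibril-associated glycoprotein MAGP1, was listed at 0 in 4 libraries. It was at 0.0434 FPKM in parental replicate 3 and at 0.0604 FPKM in M8 replicate 2, an estimated 1 read in each.

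Eln, Loxl1 and Lox were low or listed at 0. Eln, the gene of tropoelastin, was at 0.0444, 0.0234 and 0.0517 FPKM in the parental libraries and at 0, 0.144 and 0.0656 FPKM in M8, or 0 to 10 estimated reads per library. Loxl1, the lysyl oxidase that binds fibulin-5, was at 0.127, 0.160 and 0.224 FPKM in the parental libraries and at 0.289, 0.246 and 0.0899 FPKM in M8. The lines overlapped for both genes, and the 3 M8 libraries themselves spread more widely than the lines differed. Lox, the founding lysyl oxidase, was listed at 0 in all 6 libraries, where 3 reads of its longest transcript would give 0.0247 to 0.0342 FPKM.

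In parental cells the order of levels was Efemp2, Fbln2, Fbln5 and Fbn1, and no replicate range overlapped that of its neighbor in this order. Efemp1 and Loxl1 followed, and their ranges overlapped. Eln and Mfap2 came next with overlapping ranges, and Fbln1 and Lox were last at 0. In M8 the first 4 kept this order without overlap, but Fbln5 lay between 25.2 and 26.4 FPKM, closer to Fbln2. The ranges of Loxl1, Efemp1 and Eln overlapped in M8. The cut at a mean FPKM of 1 fell between Fbn1, with a mean over 6 libraries of 1.79, and Efemp1, with 0.197.

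Of the 4 genes in the fit, Fbln5 and Efemp2 lay past the threshold as higher and Fbln2 as lower in M8, which for Fbln5 the choice of the gene had fixed. Over all 10597 genes tested, 21.2% were higher and 16.5% were lower under the same rule. This balance turned with the scaling, to 1470 higher and 2769 lower genes under upper-quartile scaling and 1658 and 2209 with TPM, against 2250 and 1745. The libraries of the lines did not overlap for Fbln5, Fbn1 and Fbln2, and they did not overlap for 45.2% of all genes tested. With a fold change of at least 1.5 as a further condition, 1.09% of all genes passed, and Fbln5 was the only 1 of the 4 to do so. Nothing is read from these counts, since the genes were chosen with the comparison known. The median log2 difference was 0.18 over the 4 genes and 0.01 over all genes tested.

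**Figure D4:**
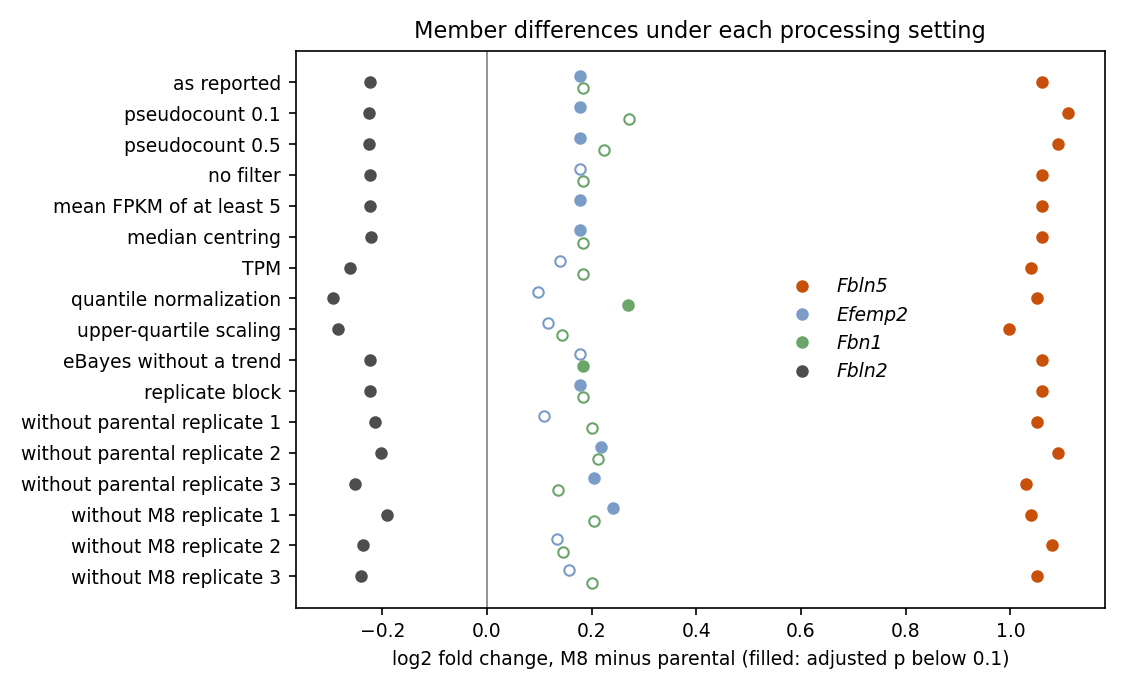
Log2 fold change of the 4 tested genes as reported and under 16 other settings of scaling, filter, pseudocount, variance model and libraries; filled points had an adjusted p below 0.1 and open points did not. Fbln5 stays between 0.998 and 1.11 and Fbln2 between -0.29 and -0.19, while Efemp2 turns open in 8 of the settings drawn.

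The genes whose pattern over the 6 libraries was most like that of Fbln5 were sought among 8300 named genes whose mean FPKM reached 5. The measure was the root mean square difference between log2(FPKM + 1) profiles, each centered on its own mean. The closest was Apod, which encodes the lipid carrier apolipoprotein D, at 0.12. Apod averaged 37.4 ± 3.04 FPKM in the parental and 81.7 ± 4.98 FPKM in the M8 libraries (SD, n = 3 each). Next came Il1rl1, the receptor for interleukin-33, at 0.13, and Slfn2, a Schlafen family gene, at 0.14. They were followed by Serpinf1, which encodes the secreted factor PEDF, at 0.14, and the chemokine gene Ccl5 at 0.15. The median over the compared genes was 0.52. Of the other fibulins, only Efemp2 and Fbln2 could be compared, at 0.45 and 0.64. Neither was among the closest genes, though Efemp2 lay below that median. The low genes Efemp1 and Fbln1 were not compared. The likeness is set mostly by the size of the step between the lines, and it was taken over the same 6 libraries that gave the difference.

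Genes that work with the fibulins and elastin were taken as 5 lists of 71 genes in all, chosen by function and not overlapping the 10. The lists were also set with earlier results of these data known. Their adjusted p-values therefore describe the fit and are no independent evidence. Of the 46 that could be tested, 6 were higher and 11 were lower in M8 in the limma fit, with Benjamini-Hochberg adjustment over all 10597 genes, and 29 did not pass. Under upper-quartile scaling 4 were higher and 17 lower, and with TPM 4 and 14. Over all genes tested, 21.2% were higher and 16.5% were lower. The median log2 difference of the 46 was -0.04, against 0.01 over all genes tested. None of the 46 passed with a fold change of at least 1.5 in the limma fit, a condition that 1.09% of all genes met. The same shares over all genes stand behind the counts of each list, and nothing particular to a list is read from them.

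In the list of microfibril and elastic fiber partners, 1 of 10 tested genes was higher (2 without parental replicate 3) and 4 were lower, beside 21.2% and 16.5% over all genes, with a median of -0.14. Ltbp4 encodes the latent TGF-beta binding protein that fibulin-5 attaches to on the way to the microfibril. It was at 72.3, 74.1 and 69.1 FPKM in the parental libraries and at 51.5, 50.7 and 51.7 FPKM in M8. The lines did not overlap, and the log2 difference of -0.48 (standard error 0.04) had an adjusted p of 0.00019. Fbln5 and Ltbp4 thus differed in opposite directions. Thsd4, a gene of the ADAMTS-like family that promotes fibrillin assembly, was lower in M8, from 16.3 ± 0.588 to 13.1 ± 0.406 FPKM (adjusted p = 0.0032). Thsd4 overlaps Gm23668 and Gm47676 on its own strand. Bgn, which encodes the small proteoglycan biglycan, was higher, at 4.61, 4.71 and 4.98 FPKM against 3.72, 3.71 and 3.32 FPKM (adjusted p = 0.0096).

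In the list of crosslinking and copper supply, 1 of 7 tested genes was higher and 1 was lower, with a median of 0.01. Pcolce encodes an enhancer of the procollagen C-proteinase, and it was the most abundant gene of the list. It rose from 567 ± 36.4 to 671 ± 6.47 FPKM (log2 difference 0.24, adjusted p = 0.0064). Pcolce overlaps Fbxo24 on the same strand, where the reads cannot be divided with certainty. Atp7a, the copper pump that loads the lysyl oxidases, was lower at 3.57 ± 0.274 against 4.30 ± 0.337 FPKM (adjusted p = 0.075), a call kept in 9 of 17 alternatives. It was lost without parental replicate 1 or 2 or M8 replicate 2 or 3, without a filter, and with quantile normalization, where the difference was -0.13 against -0.21. Loxl4, at 53.6 ± 2.196 and 53.8 ± 2.81 FPKM, was the lysyl oxidase with the highest level measured, and its difference of 0.01 did not pass (standard error 0.05) and changed sign under TPM, quantile and upper-quartile scaling and without any 1 of 4 libraries (parental replicates 1 and 2, M8 replicates 2 and 3). It was named after its values were seen.

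In the list of elastin and fibulin proteolysis, 1 of 8 tested genes was higher and 2 were lower, with a median of -0.18. The lower genes numbered 4 without parental replicate 1 or 3 and 5 with upper-quartile scaling. Both lower genes encode inhibitors of metalloproteinases. Timp1 was at 159, 141 and 181 FPKM in the parental libraries and at 137, 124 and 125 FPKM in M8, without overlap (log2 difference -0.31, adjusted p = 0.019). Timp2 fell from 238 ± 11.7 to 198 ± 3.996 FPKM (log2 difference -0.27, adjusted p = 0.0029). Ctsl, the lysosomal protease cathepsin L, was the most abundant gene of the list, at 1631 ± 82.1 and 1773 ± 45.2 FPKM. It passed as higher by 0.12 on the log2 scale (adjusted p = 0.089), but the call was kept in only 7 of 18 alternatives. It was lost without parental replicate 1 or any 1 of the M8 replicates, without a filter, without a trend, with the replicate block, with TPM (0.08) and with upper-quartile scaling (0.06). Timp1 overlaps Syn1 on the opposite strand, and Timp2 overlaps Cep295nl and Ctsl overlaps a processed pseudogene, each on its own strand.

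In the list of fibulin and elastin receptors, 1 of 7 tested genes was higher and 6 did not pass, with a median of 0.02. Without parental replicate 1, 2 were higher and 2 lower, and 2 were lower under TPM and under upper-quartile scaling. The gene that passed was Ctsa, which encodes cathepsin A (protective protein), a partner of the elastin-binding protein. It was at 31.2, 31.0 and 28.3 FPKM in the parental libraries and at 38.2, 36.4 and 38.2 FPKM in M8 (log2 difference 0.31, adjusted p = 0.0026). Ctsa overlaps Neurl2 and Pltp, both on the opposite strand. Itgb1, the beta-1 chain of several matrix-binding integrins, had the highest level, at 215 ± 8.74 and 202 ± 6.69 FPKM. Its difference of -0.09 had an adjusted p of 0.14 and passed under TPM, quantile or upper-quartile scaling and without parental replicate 1, where it was -0.13, -0.20, -0.16 and -0.13.

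TGF-beta is a known inducer of Fbln5 and of elastin, and latent TGF-beta is stored on microfibrils. In the list of TGF-beta signaling and response, 2 of 14 tested genes were higher (1 without parental replicate 3 or M8 replicate 2, and with TPM or upper-quartile scaling) and 4 were lower, beside 21.2% and 16.5% over all genes, with a median of -0.01. The ligand gene Tgfb1 was lower in M8, from 22.5 ± 1.45 to 18.5 ± 1.08 FPKM (log2 difference -0.27, adjusted p = 0.011). The gene of the co-receptor betaglycan, Tgfbr3, was lower from 17.1 ± 0.119 to 13.0 ± 1.011 FPKM (log2 difference -0.37, adjusted p = 0.0025). Tgfbr3 overlaps Gm43422, Gm43423 and Gm42900 on its own strand. The response gene Ctgf was higher, from 13.8 ± 0.309 to 16.9 ± 0.477 FPKM (log2 difference 0.27, adjusted p = 0.0036). Smad4, the shared signal carrier, had the highest level and did not pass, at 28.3 ± 1.89 and 27.1 ± 1.11 FPKM (adjusted p = 0.46).

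**Figure D5:**
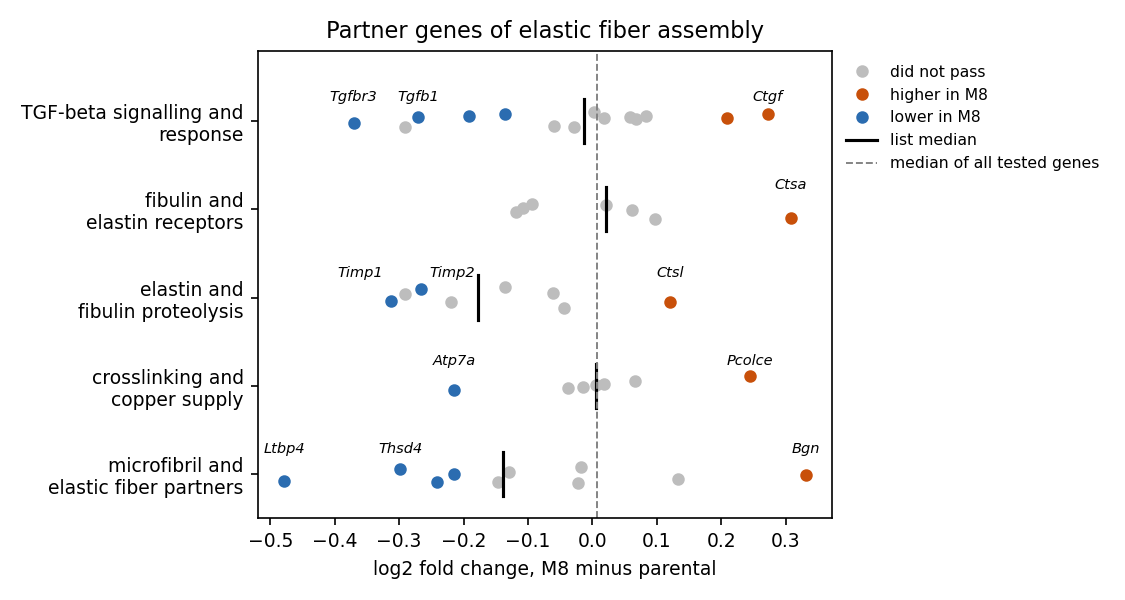
Log2 fold change of the 46 tested partner genes by list, with the list median (black bar) and the median of all tested genes (dashed line). Genes that passed are colored, and of these the ones named in the text are labeled. All 46 lie between -0.48 and 0.33.

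Fibulins are made mainly by mesenchymal and vascular cells, so markers of those and of other cell types were examined beside them. Of the colon epithelium markers, Epcam, Krt19, Cdh1 and Cdx2 were listed at 0 in all 6 libraries. Of the labelled tissue's markers, 4 of 10 were thus at 0, and Krt8, Vil1 and Cldn7 were also near 0, with means of at most 0.0901 FPKM in either line. By contrast, Krt18 averaged 32.5 ± 6.97 and 36.4 ± 1.85 FPKM and Krt20 17.4 ± 2.36 and 11.9 ± 0.979 FPKM in the parental and M8 libraries. The summed level of the 10 epithelial markers was 41.8 to 57.7 FPKM in parental cells and 48.1 to 50.1 in M8. Of the 3 tested, Krt20 and Lgals4 were lower in M8. Of the 10 fibroblast markers, 6 were tested, Pdgfrb was higher and Pdgfra and Dcn were lower, and Thy1 and Postn were at 0. Their sum was 676 to 720 FPKM in parental cells and 673 to 706 in M8, most of it from the collagen gene Col1a2. The 7 smooth muscle markers summed to 27.3 to 32.1 and 30.4 to 34.0 FPKM, nearly all from Smtn, while Acta2 and Myh11 were near 0. The 6 endothelial markers summed to less than 0.7 FPKM in every library and the 6 immune markers to less than 0.05. The summed levels of the lines overlapped for each of the 5 lists, and the part of these markers in the fibulin differences was not tested.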

How the data were processed

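RNA of 3 parental CT26.mMR1 and 3 M8 libraries was prepared with a stranded mRNA kit and sequenced as single reads. The authors mapped the reads to mm10 and deposited FPKM values per gene symbol. The submitters' processing notes name TopHat2 2.1.1, Bowtie2 2.2.8, SAMtools 0.1.18 and Cuffdiff 2.2.1, and the gene annotation is not given in the sources used here. The authors' own differential expression, made from read counts, was not repeated, because FPKM values are not counts.

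The values were transformed to log2(FPKM + 1) and compared by limma 3.58.1 under R 4.3.3 (lmFit, eBayes with a trend) over the 10597 genes whose mean FPKM reached 1, with no covariates. The threshold was a Benjamini-Hochberg adjusted p below 0.1 with any fold change. Fold changes of low genes are understated on this scale. The fit was tested on simulated data. Depth was estimated from the steps between low FPKM values, taking a fragment length of 200 bases off transcripts longer than 1500. Only 69.2% to 72.6% of the low values came out whole within 0.05 reads, so no count test was run, and the read numbers are estimates that cover counting error only.

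The 10 genes and all lists were chosen with earlier results of these data known. All 10 are named. In each partner list, up to 3 genes with the largest change among those past the threshold and the gene with the highest level are named, and so are the 5 genes most like Fbln5. Gene positions came from GENCODE M21 and promoter windows from RefSeq (GRCm38.p6). The alternatives were pseudocounts of 0.1 and 0.5, other filters, scalings and thresholds, no trend, a replicate block, and each library left out in turn. Python 3.11.15 was used for tables and figures.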

Additional observations from a re-analysis of the deposited data

How the results depend on the processing

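The Fbln5 difference lay between 0.998 and 1.11 on the log2 scale in the 18 alternatives, given as a description because the gene was chosen for its rise. Fbln2 ranged from -0.29 to -0.19 and failed only where a fold change of at least 1.5 was required. Efemp2 ranged from 0.10 to 0.24 and passed in 8 of 18 alternatives. Fbn1 ranged from 0.14 to 0.27 in 17 alternatives and passed with quantile normalization and with eBayes without a trend, and a mean FPKM of at least 5 gave it no value. Of the genes run under the alternatives (the 4 members, 14 partner genes named by rule, Loxl4, the 5 genes most like Fbln5 and the tested markers, where 5 genes had no value at a mean FPKM of at least 5), 3 that did not pass changed sign. Loxl4 was at -0.0308 with TPM, at -0.0738 under quantile and at -0.0547 under upper-quartile scaling, and with each library left out it ranged from -0.0201 to 0.0489. Krt18 ranged from -0.00439 (without parental replicate 1) to 0.277 in the same way, and Col1a1 was at -0.0153 under quantile normalization.

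Among the members, 1 was higher in place of 2 without a filter, with TPM, with upper-quartile scaling, with an adjusted p below 0.05 and with a fold change of at least 1.5, and with each library left out 1 or 2 were higher. Without a filter 2 were lower, the second being the low gene Efemp1, and with the fold condition 0 were lower. The partner genes lower in M8 numbered 17 with upper-quartile scaling, and with the fold condition 0 were higher and 0 were lower. Over all genes, upper-quartile scaling called 1470 higher and 2769 lower, TPM 1658 and 2209, quantile normalization 1820 and 1773, and the fold condition 42 and 74, against 2250 and 1745 as reported. With each library left out, 1591 to 2100 were higher and 1142 to 1681 were lower, the fewest without M8 replicate 1. The median difference of all genes moved by less than 0.1 under every scaling, at most to -0.05 with upper-quartile scaling. The causes of these shifts were not tested.

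Deviations of same-numbered libraries correlated at 0.10, -0.11 and -0.03, and those of different-numbered libraries at -0.13 to 0.18. With 3 libraries per line these values depend on each other, so they cannot exclude that the replicate numbers paired the libraries. With the replicate number as a block, 2171 genes were higher and 1688 lower, and among the members 2 were higher and 1 was lower. The block turned 5 partner genes higher and 12 lower, and Ctsl no longer passed. Genes under a mean FPKM of 1 rest on at most about 20 estimated reads among the members, and depth limits them.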
